A study of Bos taurus with 35 samples.

Results

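The genes described here encode the extracellular matrix of beef muscle and the receptors and proteases that act on it: 11 collagen chains, 7 laminin, fibronectin, fibrillin and fibulin glycoproteins, 8 integrin chains and 10 proteins of the ADAM, ADAMTS and MMP families. They were selected on their symbols from the genes that the study lists as differentially expressed (DE) at 1 or more time points *post-mortem*, and 36 genes met the rule, of 27607 in the count table and of 3106 that the listing at hand gives a symbol. All 36 passed the filter on low counts. Membership therefore rests on the contrasts of each later time point against 0 h, and of the 36 genes 32 were listed at 72 h (26 lower and 6 higher) and 4 at 48 h alone (*COL2A1*, *FBN2* and *ITGA10* higher, *MMP25* lower). Values against 0 h are for that reason given as a description, without a test.

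Cores of *longissimus thoracis*, the large muscle along the back, came from the left carcass side of 7 crossbred heifers of British and Continental breeding that were finished on barley. Each heifer was sampled at 0, 6, 24, 48 and 72 h, where 0 h means about 45 min after slaughter and the later cores came from the same carcass, hung in a cooler at 4 °C. No animal was treated and none was kept alive beyond 0 h, so every time point shares the same animals, genotypes and slaughter. Each core gave 1 RNA-Seq library (35 in all) with 20568418 to 104275821 counted reads, a median of 40133660, and TMM factors of 0.846 to 1.11. Levels are CPM (read counts relative to library size) after TMM scaling, which are shares of the RNA in a library and not amounts per gram, and since gene lengths were not used levels are not compared between genes. In whole muscle, fewer cells of a type and less RNA per cell cannot be told apart.

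Skeletal muscle fibres are wrapped in a basement membrane of laminin, collagen IV and collagen VI, and lie in a looser matrix of fibrillar collagens, fibronectin and fibrillin microfibrils that is made mainly by fibroblasts. Integrins are paired alpha and beta chains in the cell membrane that tie this matrix to the cytoskeleton, and some of them also release TGF-beta from its latent form. ADAM and MMP proteases shed membrane proteins and cut matrix, while ADAMTS enzymes process procollagens and proteoglycans. In meat the amount and crosslinking of intramuscular connective tissue set the background toughness.

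The median member was close to its 0 h level at 6 and 24 h and lower at 48 and 72 h, with differences between roles at 24 h. Genes were called at an FDR below 0.05 together with a fold change above 1.5, the criteria of the listing itself. At 6 h 1 member was called higher and 0 lower, beside 0.349% and 0.185% of the 14630 genes tested. At 24 h the counts were 2 higher and 1 lower (0.725% and 0.95% of all genes), at 48 h 6 higher and 9 lower (2.96% and 6.3%), and at 72 h 6 higher and 27 lower (9.8% and 15.4%). Nothing is read from these shares, since the members were picked by the same contrasts. The calls matched the listing for all 36 genes at 6, 24 and 48 h and for 35 at 72 h, where *MMP25* was called lower (log2 fold change -0.87, SE 0.24) but is not in the listing at hand, whose sheet of genes lower at 72 h lacks 257 rows. At 6 and 24 h the members had median log2 fold changes of 0.06 and 0.04, and at 48 and 72 h of -0.43 and -0.76, whereas the median of all genes stayed between -0.0048 and 0.014. At 24 h the median was -0.29 for the integrins and 0.28 for the glycoproteins, and *ITGAV* (-0.28) and *ITGB6* (-0.52) were already lower in 7 of 7 animals without being called. The roles were mixed, and their difference was not tested. The integrins *ITGAD* (0.59, called), *ITGA10* (0.41) and *ITGA2B* (0.25) were higher at 24 h, and the glycoproteins *FBN1* (0.0009) and *FN1* (0.04) were level. The extremes at 72 h were *COL6A5* at -2.54 and *FBN3* at 1.42.

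**Figure D1:**
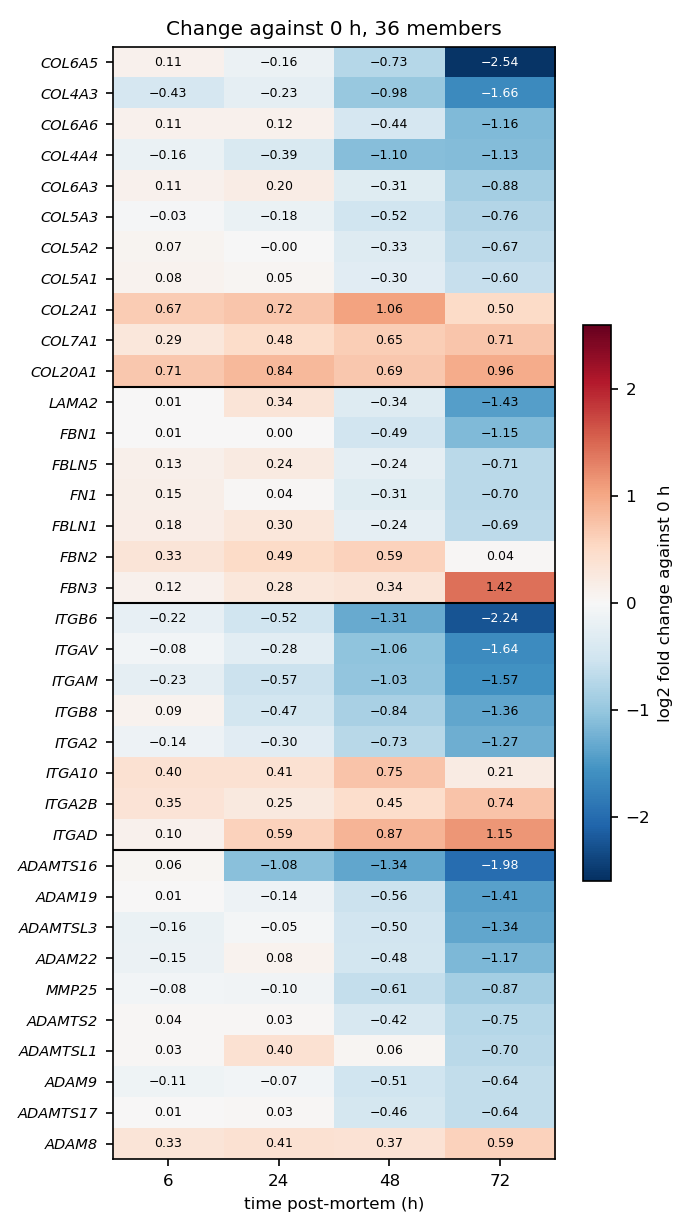
Log2 fold change against 0 h of the 36 genes (rows, grouped as collagens, glycoproteins, integrins and proteases and ordered by the 72 h value) at 6, 24, 48 and 72 h (columns), with the fitted value in each cell; blue is lower and red is higher than 0 h. The columns of 6 and 24 h are mostly pale, with *ADAMTS16* (-1.08) and *COL20A1* (0.84), both at 24 h, as the deepest cells, and the 72 h column runs from -2.54 to 1.42.

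Summed over the 26 genes listed as lower at 72 h, expression was 993 CPM in the lowest, 1436 in the median and 1763 in the highest animal at 0 h, and 520, 846 and 983 CPM at 72 h. Every animal at 72 h lay below every animal at 0 h, and the margin was narrow because animal 103 was low at 0 h. The 26 genes were picked as lower in these same libraries, so the separation is a description and no result. The sum was 1476 ± 161 CPM (SD, n = 7) at 6 h, 1466 ± 201 at 24 h and 1070 ± 133 at 48 h, against 1421 ± 227 at 0 h and 779 ± 166 at 72 h. *COL6A3*, *FN1* and *FBN1* made up most of this sum of CPM, which was not scaled by gene length. The 6 genes listed as higher had few reads, and summed to 9.65 ± 1.06 CPM at 0 h and 17.0 ± 1.82 at 72 h.

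**Figure D2:**
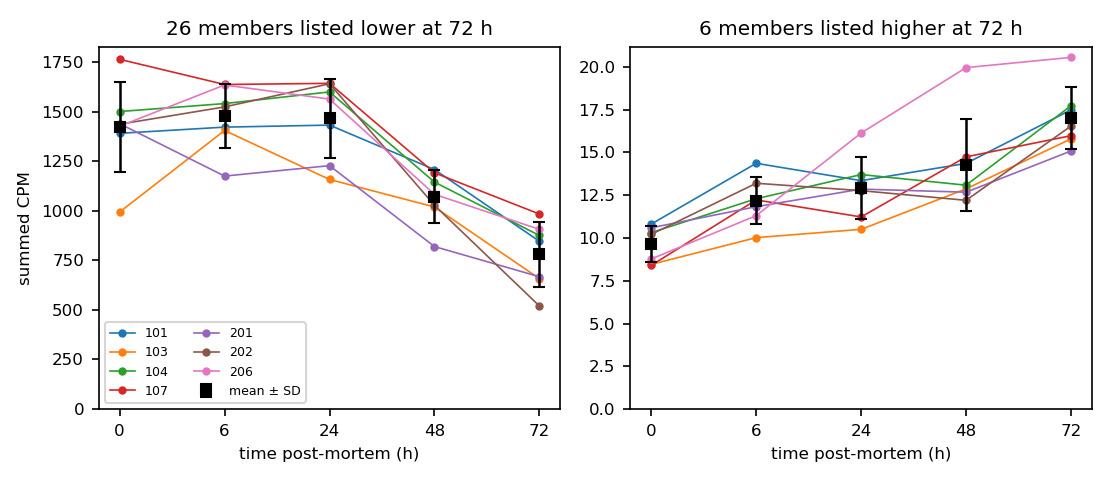
Summed CPM (vertical axes from 0) at each time point for the 26 genes listed lower (left) and the 6 listed higher (right) at 72 h; thin lines are the 7 animals and black squares with bars are the mean ± SD. The left sum is level to 24 h and lower at 48 and 72 h (1070 and 779 CPM on average), and the right sum goes from 9.65 to 17.0 CPM.

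Among the collagens, 8 of 11 were called lower at 72 h and 2 higher, with a median log2 fold change of -0.76. Of all genes 15.4% were called lower and 9.8% higher. The members were picked by these contrasts, so the counts by role, here and below, are descriptions. The deepest was *COL6A5* (ENSBTAG00000049122), a collagen VI chain that can stand in for the alpha 3 chain in the microfibrils around muscle fibres. It was at 0.222, 0.820 and 2.09 CPM in the lowest, median and highest animal at 0 h, and at 0.0808, 0.152 and 0.270 CPM at 72 h. The ranges met, 6 of 7 animals were lower, and as few as 2 reads were counted in a 72 h library, so that the value of -2.54 (SE 0.48) is the least precise of the set. Its relative *COL6A6* (ENSBTAG00000012837) was at 3.19, 5.48 and 11.7 CPM at 0 h and at 1.07, 3.06 and 3.69 CPM at 72 h, lower in 7 of 7 animals. The main chain, *COL6A3*, had far more reads and moved from 299 ± 43.5 to 165 ± 46.7 CPM, with no overlap between the animals of the 2 time points.

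*COL4A3* and *COL4A4* encode the alpha 3 and alpha 4 chains of collagen IV, which assemble together in specialised basement membranes. *COL4A3* (ENSBTAG00000021316) was at 2.05, 3.31 and 3.96 CPM at 0 h and at 0.339, 0.982 and 1.63 CPM at 72 h. The ranges did not overlap, and the log2 fold change was -1.66 (SE 0.21). *COL4A4* (ENSBTAG00000021310) was at 1.06, 1.89 and 2.53 CPM at 0 h, at 0.465, 0.855 and 1.89 CPM at 48 h and at 0.527, 1.0 and 1.2 CPM at 72 h, so that it was as low at 48 h (-1.10) as at 72 h (-1.13). Both genes were listed at 48 and 72 h. They lie side by side in the RefSeq annotation of a later bovine assembly (ARS-UCD2.0), as do *COL6A5* and *COL6A6*.

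The collagen V chains, which set the diameter of the collagen fibrils they nucleate, all had many reads and all moved by less than 1 log2 unit. At 72 h *COL5A3* was at -0.76 (SE 0.10), *COL5A2* at -0.67 (SE 0.10) and *COL5A1* at -0.60 (SE 0.12). *COL5A2* and *COL5A3* were lower in 7 of 7 animals without overlap of the ranges, and *COL5A1* was lower in 6 of 7. The 3 genes with the pattern most like *COL5A2* over the 35 samples, after centring on each animal, were *VCAN* (Pearson r = 0.97), *COL5A1* (0.96) and *FN1* (0.95). These samples share animals and libraries, so the coefficients are descriptions.

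3 collagens went the other way. *COL20A1* (ENSBTAG00000004582), a minor collagen that associates with fibrils, was the one member called at 6, 24, 48 and 72 h. It was at 0.230, 0.712 and 1.32 CPM at 0 h, at 0.655, 1.36 and 1.63 CPM at 6 h and at 0.901, 1.2 and 2.6 CPM at 72 h. The ranges overlapped, with all 7 animals higher at 6 h and at 72 h, and log2 fold changes ran from 0.69 at 48 h to 0.96 at 72 h (SE 0.19 each), with 0.71 already at 6 h. It had 5 reads in its lowest 0 h library, and the call at 6 h was lost when animal 101, 103, 104, 107, 201 or 202 was left out. The named genes most like it in pattern were *PTDSS2* (r = 0.80), *STARD3* (0.79) and *TMEM82* (0.79).

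*COL7A1* (ENSBTAG00000019081), which forms the anchoring fibrils of skin, was at 1.91, 2.48 and 3.50 CPM at 0 h and at 3.33, 4.05 and 4.93 CPM at 72 h. Log2 fold changes of 0.29 at 6 h and 0.48 at 24 h were followed by 0.65 and 0.71 at 48 and 72 h, and 7 of 7 animals were higher from 24 h on. *COL2A1*, the main collagen of cartilage, was called at 48 h only (1.06, SE 0.24) and was at 0.50 at 72 h, with a mean of 0.400 ± 0.189 CPM at 0 h and 0.857 ± 0.438 at 48 h.

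Of the 7 glycoproteins, with a median of -0.70 at 72 h, 5 were called lower and 1 higher, beside 15.4% and 9.8% of all genes. *LAMA2* (ENSBTAG00000010229), the laminin chain that links the basement membrane of muscle fibres to dystroglycan and integrins, was at 28.8, 35.7 and 46.0 CPM at 0 h, at 38.6, 44.3 and 55.6 CPM at 24 h and at 8.15, 13.2 and 19.3 CPM at 72 h. It was thus higher at 24 h than at 0 h in 7 of 7 animals and lower at 72 h in 7 of 7, where the ranges did not overlap. The log2 fold changes were 0.34, -0.34 and -1.43 (SE 0.11 each) at 24, 48 and 72 h. *FBN1* (ENSBTAG00000002278), the main protein of the fibrillin microfibrils, was at 120, 205 and 262 CPM at 0 h and at 47.5, 94.97 and 134 CPM at 72 h. The low 0 h value, of animal 103, was the reason that its ranges overlapped, and all 7 animals were lower at 72 h (-1.15, SE 0.13).

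The fibulins bind elastic fibres and basement membranes. *FBLN5* (ENSBTAG00000018123) was at 28.8, 34.7 and 46.3 CPM at 0 h and at 10.5, 24.1 and 30.9 CPM at 72 h, lower in 7 of 7 animals with overlapping ranges (-0.71, SE 0.11). *FBLN1* followed it closely (-0.69, SE 0.12), as did *FN1*, which encodes fibronectin, the adhesive protein that integrins bind (-0.70, SE 0.14), and both were lower in 6 of 7 animals. Of the other fibrillins, *FBN3* (ENSBTAG00000000595) was at 0.354, 0.520 and 1.01 CPM at 0 h, at 0.453, 0.859 and 1.07 CPM at 48 h and at 0.557, 1.43 and 3.2 CPM at 72 h. It was higher at 72 h in 6 of 7 animals (1.42, SE 0.22), against a value of 0.34 (SE 0.24) at 48 h. *FBN2* was called at 48 h only (0.59, SE 0.23) and was at 0.04 at 72 h.

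**Figure D3:**
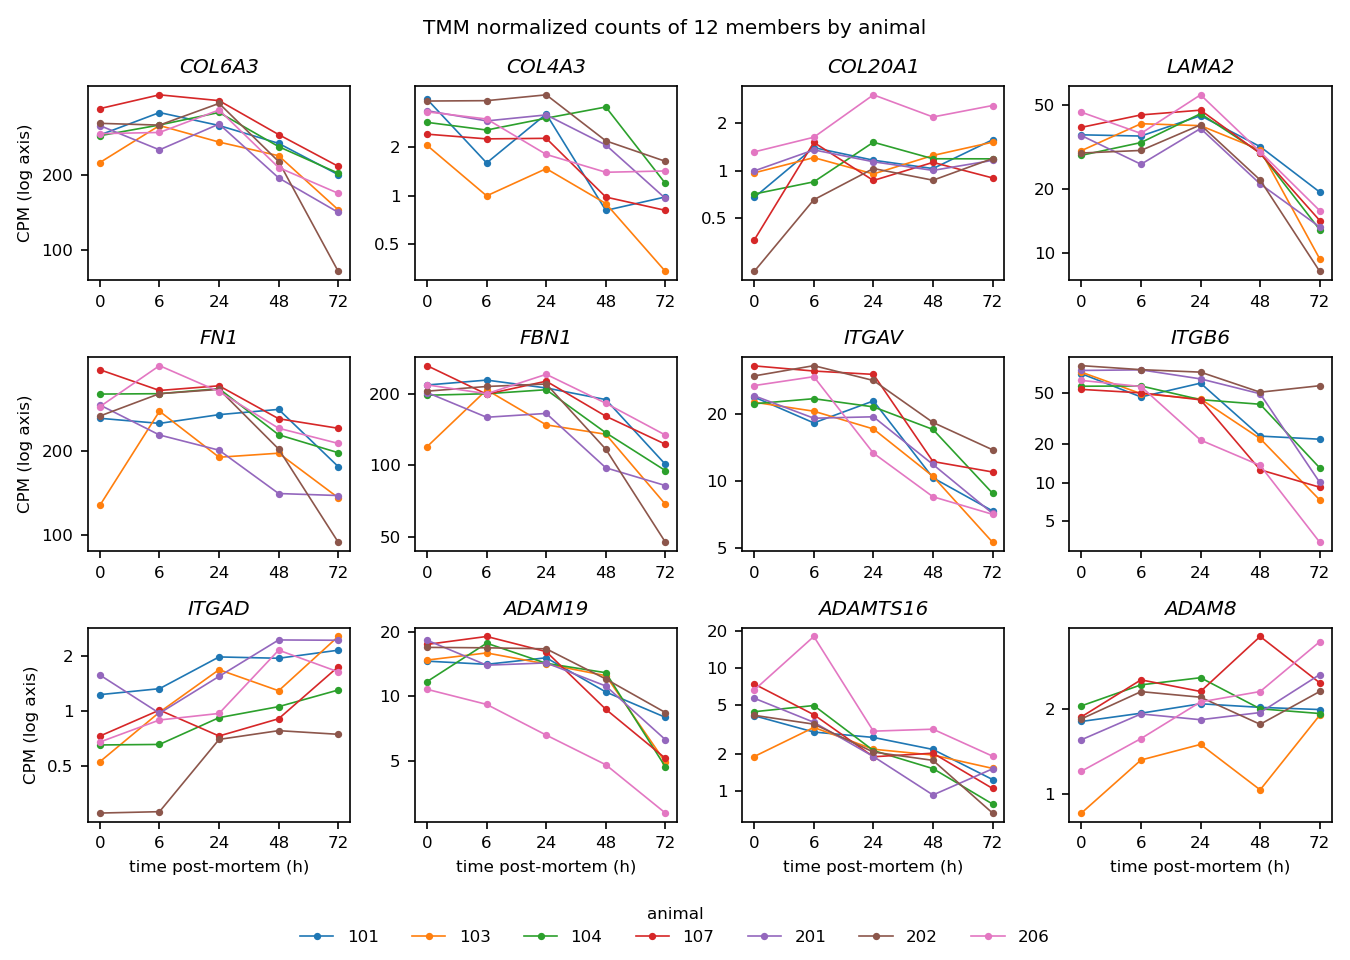
CPM (vertical axes, log scale, each with its own range) of 12 of the genes at the 5 time points, with 1 line per animal (7 animals). *COL6A3*, *LAMA2*, *ITGAV* and *ADAM19* have no 72 h value above their lowest 0 h value, *ITGB6* stays high in animal 202 (56.6 CPM at 72 h), and *ADAMTS16* has a single high point at 6 h in animal 206 (18.2 CPM).

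The integrins had the lowest median at 72 h, -1.31 over 8 chains, of which 5 were called lower and 2 higher (15.4% and 9.8% of all genes). *ITGAV* (ENSBTAG00000019929) encodes the alpha V chain, which pairs with several beta chains to bind fibronectin and latent TGF-beta. It was at 22.2, 24.1 and 32.9 CPM at 0 h, at 8.48, 11.8 and 18.3 CPM at 48 h and at 5.30, 7.33 and 13.8 CPM at 72 h, so that no animal of 48 or 72 h reached the lowest of 0 h. Its log2 fold change was -1.06 (SE 0.13) at 48 h and -1.64 (SE 0.13) at 72 h. *ITGB6* (ENSBTAG00000009080), one of its partners, was at 53.0, 70.1 and 81.0 CPM at 0 h, at 12.6, 23.0 and 50.4 CPM at 48 h and at 3.43, 10.02 and 56.6 CPM at 72 h. The 72 h ranges overlapped through animal 202 alone, which kept 56.6 CPM, and the other 6 animals were all below the lowest 0 h value (-2.24, SE 0.29). *ITGB8* (ENSBTAG00000003709), another partner of alpha V, was at 1.47, 2.36 and 3.22 CPM at 0 h and at 0.540, 0.871 and 1.37 CPM at 72 h, without overlap (-1.36, SE 0.20). Over the 35 samples *ITGAV* and *ITGB6* had r = 0.94 and *ITGAV* and *ITGB8* r = 0.91 after centring on each animal, as a description of samples that share animals. Members that are not its partners were as close to *ITGAV*: *ADAM19* (0.94), *COL4A3* (0.92) and *ITGA2* (0.92). Centring leaves in the fall over time for which all of these genes were listed, so the coefficients say nothing particular about pairs.

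*ITGA2* (ENSBTAG00000019289), the alpha chain of a collagen receptor, was at 2.86, 4.53 and 6.23 CPM at 0 h and at 1.0, 1.49 and 4.06 CPM at 72 h, lower in 7 of 7 animals (-1.27, SE 0.16). *ITGA10*, the alpha chain of another collagen receptor, was called higher at 48 h only (0.75, SE 0.18) and was at 0.21 at 72 h. *ITGA2B* (ENSBTAG00000008165), known as the platelet fibrinogen receptor chain, was at 2.79, 3.04 and 3.86 CPM at 0 h and at 4.25, 5.65 and 6.82 CPM at 72 h. It was the one member whose 72 h range lay wholly above its 0 h range (0.74, SE 0.12).

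*ITGAM* and *ITGAD* encode alpha chains of leukocyte integrins, and they moved apart. *ITGAM* (ENSBTAG00000047238), typical of macrophages and neutrophils, was at 0.610, 1.83 and 2.18 CPM at 0 h and at 0.0502, 0.481 and 1.35 CPM at 72 h, lower in 7 of 7 animals with overlapping ranges (-1.57, SE 0.22). *ITGAD* (ENSBTAG00000019524) was at 0.276, 0.675 and 1.57 CPM at 0 h, at 0.697, 0.967 and 1.97 CPM at 24 h and at 0.744, 1.74 and 2.55 CPM at 72 h, higher in 7 of 7 animals with overlapping ranges (1.15, SE 0.18). Its call at 24 h (0.59) lay just inside the fold threshold. Markers of other cells moved at the same times, and they could be named only where the listing holds them. Of all genes, 2.96% were called higher at 48 h, and 9.8% were called higher and 15.4% lower at 72 h. Of the 6 macrophage and monocyte markers, the 4 with a name in the listing (*CD14*, *CD163*, *CSF1R* and *MRC1*) were all called lower at 72 h, and their sum ranged from 27.2 to 87.5 CPM at 0 h and from 11.1 to 31.0 CPM at 72 h. The 5 T cell markers were all called higher at 48 and 72 h, with a sum of 5.09 to 10.5 CPM at 0 h and 10.5 to 14.4 CPM at 72 h. Of the neutrophil markers *S100A9* alone was named, at 0.341 ± 0.212, 0.662 ± 0.678 and 0.326 ± 0.370 CPM at 0, 48 and 72 h. It was called higher at 48 h only. Of the platelet markers *TUBB1* alone was named, at 0.135 ± 0.0428 and 0.258 ± 0.159 CPM at 0 and 72 h. It was called higher at 48 and 72 h (log2 fold changes of 0.77 and 0.81). The part of these cells in the integrin values was not tested.

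All of the proteases and related proteins but *ADAM8* were called lower at 72 h (9 of 10, median -0.81), beside 15.4% of all genes. *ADAMTS16* (ENSBTAG00000018460), a secreted metalloprotease, was the earliest, at 1.91, 4.43 and 7.45 CPM at 0 h, at 1.90, 2.14 and 3.08 CPM at 24 h and at 0.663, 1.24 and 1.93 CPM at 72 h. The ranges overlapped at both times through animal 103, which had the lowest 0 h value, and 6 of 7 animals were lower at 24 h (-1.08, SE 0.25) and 7 of 7 at 72 h (-1.98, SE 0.27). *ADAM19* (ENSBTAG00000003836), a membrane protease that sheds neuregulin, was at 10.8, 14.8 and 18.3 CPM at 0 h and at 2.85, 5.14 and 8.41 CPM at 72 h. No overlap remained at 72 h (-1.41, SE 0.13), and animal 206 was the lowest at each time point. *ADAMTSL3* (ENSBTAG00000004645), a matrix protein built like an ADAMTS but without the catalytic domain, was at 3.55, 6.18 and 8.94 CPM at 0 h and at 1.62, 2.25 and 3.96 CPM at 72 h, lower in 7 of 7 animals (-1.34, SE 0.14).

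The remaining proteins of this kind varied less. *ADAM22*, a relative without protease activity, was at -1.17 (SE 0.17) and its ranges did not overlap, and the same lack of overlap held for *ADAMTS17* (-0.64, SE 0.12). *ADAMTS2*, which trims the amino end of fibrillar procollagens, was at -0.75 (SE 0.15), and *ADAM9*, a widely expressed sheddase, at -0.64 (SE 0.14). *ADAMTSL1*, which lacks the catalytic domain like *ADAMTSL3*, had log2 fold changes of 0.40 and 0.06 at 24 and 48 h and of -0.70 at 72 h, and only the last of these was called. *MMP25*, a leukocyte metalloprotease anchored in the membrane, was at 0.602 ± 0.138 CPM at 0 h and 0.352 ± 0.183 CPM at 72 h. *ADAM8* (ENSBTAG00000023832), a leukocyte sheddase, was at 0.859, 1.80 and 2.04 CPM at 0 h and at 1.90, 2.30 and 3.43 CPM at 72 h, higher in 6 of 7 animals, and its value of 0.59 (SE 0.14) lay just inside the threshold.

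Over all members, the 0 h and 72 h ranges of the 7 animals did not overlap for 10 genes that were lower and 1 that was higher, beside 10.1% and 7.9% of all genes tested. Most members were listed by this same contrast, so nothing is read from the difference between these shares. The values nearest the fold threshold were, on the inner side, *ITGAD* at 24 h, *ADAM8* at 72 h and *FBN2* at 48 h (0.59 each), *COL5A1* at 72 h (-0.60) and *MMP25* at 48 h (-0.61), and, on the outer side, *ITGAM* at 24 h (-0.57) and *ADAM19* at 48 h (-0.56). *COL6A5* at 48 h (-0.73) and *COL2A1* at 24 h (0.72) passed the fold change but not the FDR.

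Whether the genes listed at 72 h had already moved by 48 h was tested at time points outside the 72 h contrast. The 6, 24 and 48 h libraries were not wholly apart from the selection. In the fit of all 35 libraries they shared the filter, the scaling, the animal block and the estimate of spread with that contrast. The 21 libraries of 6, 24 and 48 h, from the same 7 animals, were filtered, scaled and fitted alone with edgeR (14322 genes, animal as a block). The p-values rest on the spread of the changes over time within these animals, since the block takes out constant differences between animals. At 48 h against 6 h, 23 of the 26 genes listed as lower had fallen at an FDR below 0.05, whereas 18.2% of all genes tested had fallen and 18.5% had risen. The 26 were picked as lower at 72 h, and genes so picked may well fall by 48 h whatever their role. The share among the other genes lower at 72 h was not taken. The excess over all genes is therefore no result about matrix genes. Their median log2 fold change was -0.47 (all genes 0.02), and 25 of the 26 were below 0, as were 47.3% of all genes. The fall was small for most: 6 of the 26 also passed the fold change of 1.5 (4.52% of all genes), namely *ADAMTS16*, *ITGB6*, *ITGAV*, *COL4A4*, *ITGB8* and *ITGAM*. All 6, and *ITGA2* and *COL4A3* of the 23, were also listed as lower at 48 h against 0 h. That contrast uses the same 48 h libraries. With animal 104 left out 10 passed the fold change. Without animal as a block the same FDR was passed by 10 genes in place of 23. Of the 6 genes listed as higher, *ITGAD* and *COL7A1* had risen, and *ITGAD* alone passed the fold change (1.01% of all genes). Both were also listed as higher at 48 h against 0 h, so their rise was not measured apart from the selection.

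By role, 7 of 8 collagens, 5 of 5 glycoproteins, 5 of 5 integrins and 6 of 8 proteases listed as lower had fallen at 48 h against 6 h (18.2% of all genes). As the genes were picked as lower at 72 h, these counts are no result about the roles. *ADAMTS16* had the largest fall, -1.37 (SE 0.22, FDR = 0.00074 in edgeR's quasi-likelihood test), and it had 5.83 ± 5.47 CPM at 6 h and 1.94 ± 0.690 CPM at 48 h. *ITGB6* fell by 1.07 on the log2 scale (FDR = 0.0012), from 58.2 ± 12.2 to 30.1 ± 16.2 CPM, and *ITGAV* by 0.97 (FDR = 0.0004), from 25.0 ± 6.10 to 12.7 ± 3.64 CPM. All of these were lower in 7 of 7 animals. *COL5A3* had the lowest FDR of the set, 1.2e-05, for a log2 fold change of -0.48 (SE 0.05), and it and *ITGB8* (-0.92, SE 0.17, FDR = 0.0013) were the members whose 6 h and 48 h ranges did not overlap.

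The genes that missed the threshold in that contrast were *COL6A5* (-0.85, SE 0.43, FDR = 0.14), *ADAM22* (-0.30, SE 0.14, FDR = 0.097) and *ADAMTSL1* (0.05, SE 0.11, FDR = 0.75). For *COL6A5* the estimate was as low as for the integrins but its error was larger. Among the genes listed as higher, *ITGAD* was at 0.78 (SE 0.17, FDR = 0.0033) and *COL7A1* at 0.36 (SE 0.11, FDR = 0.019), each in 6 of 7 animals. *COL20A1* was at -0.01 (SE 0.18, FDR = 0.98), and so showed no difference from 6 h that this fit could detect. *ADAM8* was at 0.05 (SE 0.12), *ITGA2B* at 0.11 (SE 0.12) and *FBN3* at 0.28 (SE 0.19). The calls of *COL4A3* (-0.56, FDR = 0.049), *ADAM9* (-0.40, FDR = 0.032), *ADAMTSL3* (-0.31, FDR = 0.039) and *COL7A1* were lost on leaving out 1 animal: for *COL4A3* any but 104, for *ADAM9* 103, 107 or 206, for *ADAMTSL3* 103, 107, 201, 202 or 206, and for *COL7A1* 103, 107 or 206. *ADAM22* passed (-0.42) without animal 104.

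**Figure D4:**
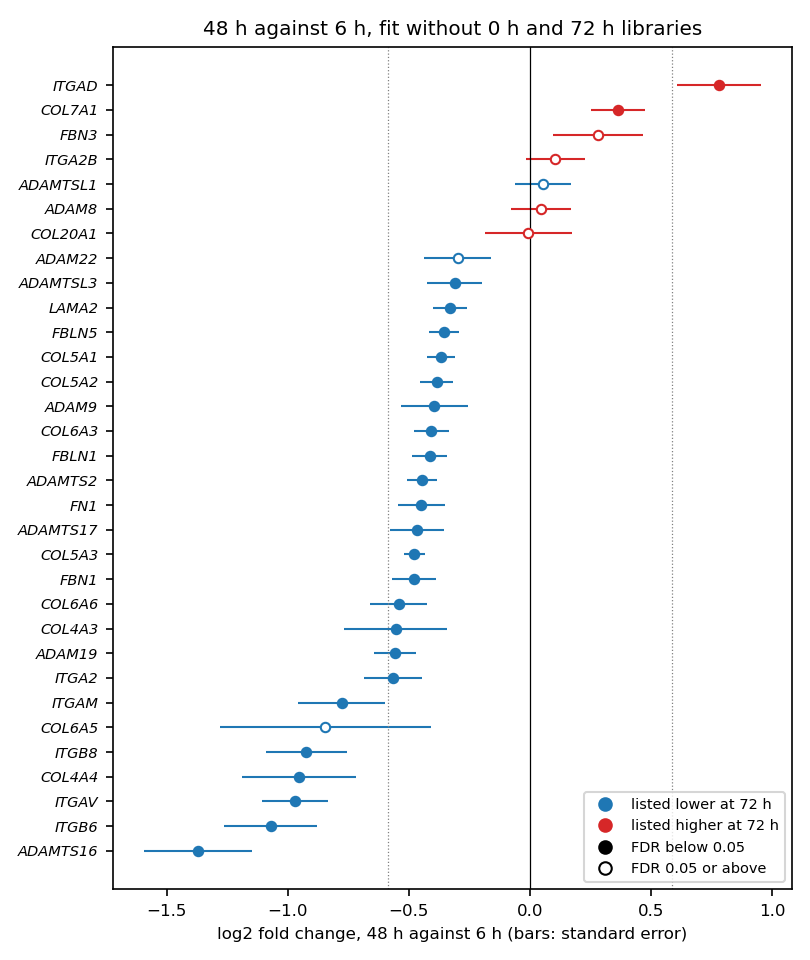
Log2 fold change at 48 h against 6 h (horizontal axis, bars are the standard error) of the 32 genes listed at 72 h, fitted on the 21 libraries of 6, 24 and 48 h; blue genes were listed as lower and red as higher at 72 h, filled points passed an FDR of 0.05, and dotted lines mark the fold change of 1.5. Of the 26 blue points 23 are filled and left of 0, and of the 6 red points 2 are filled, *ITGAD* (0.78) and *COL7A1* (0.36).

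The same fit gave the steps from 6 to 24 h and from 24 to 48 h. At 24 h against 6 h, 1 of the 26 genes had fallen at the FDR (0.384% of all genes), *ADAMTS16*, which also passed the fold change (-1.10, SE 0.21, FDR = 0.02; 0.349% of all genes), and 1 had risen (0.0908%), *LAMA2* (0.35, SE 0.07, FDR = 0.035). The median of the 26 was -0.01, with 14 below 0, and 5 had an unadjusted p below 0.05 (*ADAMTS16*, *COL5A3* and *ITGB8* lower, *LAMA2* and *ADAMTSL1* higher), as did 1164 of the 14322 genes tested. The call of *ADAMTS16* was lost without animal 104, 107, 201 or 202. This gene was also listed as lower at 24 h against 0 h, a contrast that uses the same 24 h libraries. At 48 h against 24 h, 22 of the 26 had fallen, whereas 11.6% of all genes had fallen and 10.9% had risen. Since the 26 were picked as lower at 72 h, this excess is likewise no result about matrix genes. The median of the 26 was -0.46 and all 26 were below 0. The fold change was passed by 5 of them (1.82%, against 0.37% of all genes higher): *ITGB6* (-0.79), *ITGAV* (-0.77), *COL4A3* (-0.75), *COL4A4* (-0.70) and *LAMA2* (-0.68, SE 0.07, FDR = 0.0002). All of these but *LAMA2* were also listed as lower at 48 h against 0 h, a contrast that uses the same 48 h libraries. The count of 5 was 3 without animal 107 or without animal 202, and without animal as a block 1 of the 26 passed the FDR. None of the 6 genes listed as higher had an unadjusted p below 0.05 in this step (lowest FDR 0.22).

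Whether the later step was lower than the earlier one was tested as the difference of the 2 steps in the same fit, a test chosen after the values were seen. It was below 0 for 24 of the 26 genes (median -0.49, all genes -0.0081), and 17 had an unadjusted p below 0.05, as did 12.7% of all genes. After adjustment 4 passed the FDR: *LAMA2* (-1.03, FDR = 0.0024), *FBLN5* (-0.59, FDR = 0.021), *FBLN1* (-0.65, FDR = 0.028) and *COL6A3* (-0.61, FDR = 0.038). All genes gave 0.307% with a lower and 0.223% with a higher later step. Because the 26 were picked as lower at 72 h, these shares too give no result about matrix genes. For the other 22 the 2 steps were not told apart, and the count of 4 was 1 without animal 104, 201 or 202, 2 without animal 107 and 0 without the block.

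Other genes of the matrix and of adhesion could be named where the listing holds them, so they too were picked for being DE. Their 72 h calls and their changes at 48 h against 6 h are therefore descriptions. Of all genes tested, 9.8% were called higher and 15.4% lower at 72 h. At 48 h against 6 h 18.5% had risen and 18.2% had fallen at an FDR below 0.05. Of 19 basement membrane and proteoglycan genes 3 were named (*NID1*, *SDC2* and *VCAN*), all called lower at 72 h, and all had fallen at 48 h against 6 h in the 21 libraries. Of 25 matricellular and elastic fibre genes 4 were named (*EMILIN1*, *EMILIN2*, *LTBP2* and *TNXB*), with the same outcome. Of 22 collagen synthesis and crosslinking genes 2 were named, and they differed in direction. *P4HA3*, a subunit of the enzyme that hydroxylates collagen prolines, was called higher from 24 h on (1.02, SE 0.13 at 72 h) and had risen at 48 h against 6 h (0.26, FDR = 0.014). *PCOLCE2*, an enhancer of procollagen processing, was at -0.88 at 72 h and had fallen (-0.32, FDR = 0.044).

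Some partners of the integrins were also named, again only where the listing holds them, so their values are descriptions too. Of 23 adhesion complex genes 3 were named. *TLN2*, which encodes the muscle talin, was at -0.89 and *LIMS1* at -0.73 at 72 h, whereas *ZYX*, a protein of mature adhesions, was at 0.59. In the 21 libraries *TLN2* and *LIMS1* had fallen and *ZYX* had risen (0.19, FDR = 0.023). Of 11 genes of TGF-beta signalling 4 were named (*SMAD3*, *TGFB2*, *TGFBR1* and *TGFBR3*). All were called lower at 72 h (15.4% of all genes), and all had fallen at 48 h against 6 h (18.2% of all genes). *TGFBR1*, a receptor of the ligand that alpha V integrins release, was at 7.95 ± 1.29 CPM at 0 h and 3.05 ± 0.993 at 72 h and had fallen by 0.88 on the log2 scale at 48 h against 6 h (FDR = 0.00081). *SMAD3*, which carries its signal, was at -1.20 at 72 h. In the dystroglycan complex, to which laminin binds, *DAG1* was at -0.73 and *SGCD* at -0.87 at 72 h, and both had fallen at 48 h against 6 h.

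Marker genes of the cells in the tissue moved in both directions. They too were named only where listed, so for a list named in part the calls of its named markers follow from the naming. Of all genes, 9.8% were called higher and 15.4% lower at 72 h. The muscle label held, since *CKM*, the muscle creatine kinase, was at 12386 ± 1079 CPM at 0 h. Of the 10 muscle fibre markers 4 were named, of which *CKM*, *TNNT1* and *TNNT3* were called higher and *NEB* lower at 72 h. Of the 8 fibroblast markers 2 were named, *PDGFRA* and *PI16*, both called lower at 72 h and both fallen at 48 h against 6 h, and their sum ranged from 50.3 to 103 CPM at 0 h and from 21.1 to 63.1 CPM at 72 h. Their values moved with those of the matrix genes, and their part in them was not tested. The 4 adipocyte markers were all called lower from 24 h on (0.95%, 6.3% and 15.4% of all genes at 24, 48 and 72 h). Their sum ranged from 19.7 to 190 CPM at 0 h and from 3.45 to 5.26 CPM at 72 h. *RGS5* and *TAGLN*, of the 6 pericyte and smooth muscle markers, and *SOX10*, a Schwann cell marker, were called higher at 72 h. No endothelial, general leukocyte or satellite cell marker was named. *COL1A1*, *COL1A2*, *COL3A1*, *COL4A1*, *COL4A2*, *COL6A1*, *COL6A2*, *ITGB1*, *ITGA7* and *LAMB2*, the main collagen, integrin and laminin chains of muscle, were not analysed here, because their IDs could not be paired with a name.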

How the data were processed

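Muscle RNA of 7 heifers at 5 time points was sequenced as stranded mRNA libraries in paired reads. According to the authors' methods and processing notes, reads were trimmed with Trimmomatic (0.39), mapped to the bovine assembly ARS-UCD1.2 with STAR (2.7.0f) and counted over exons with featureCounts (1.6.4) and an Ensembl annotation. The deposited values are raw read counts per gene, neither normalized nor filtered, and 0 sample columns were left unused. The counts were taken as strand specific: although an unstranded option is printed, the methods say that only sense reads were analysed, and the column totals match the span given for such reads. Genes carry Ensembl IDs, and names came only from the study's DE listing, of which a shortened copy was at hand: its sheet of genes lower at 72 h holds 1999 genes and lacks 257 rows, so members may be missing. The planned wider gene family therefore came down to the 36 members. No genome position is given, and a RefSeq table of a later assembly was used only for which genes are neighbours.

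Counts were analysed in edgeR (4.0.16, R 4.3.3): filterByExpr by time point (minimum count 10), TMM, a model with animal as a block, and the quasi-likelihood test, with FDR by Benjamini and Hochberg over all tested genes. Standard errors are the log2 fold change over the square root of F. A second fit held only the 21 libraries of 6, 24 and 48 h. Animal numbers pair the samples, since 5 cores came from each carcass: deviations from the time point means had a median r of 0.58 within animals (70 pairs, all over 0.1) and -0.12 between animals. Correlations between genes used log2 CPM with a prior count of 2. On simulated counts the 72 h contrast recovered 97 of 100 genes changed 2-fold and made 2 false calls among 14478 genes. The contrast of 48 h with 6 h recovered 95 of 100 and made 3 false calls among 14224 genes. No change below 2-fold was simulated, so these rates do not cover the smaller changes counted by the FDR alone. Alternatives were other scaling factors, filters, DESeq2 (1.42.0), no block, 14 samples, other thresholds and leaving out each animal.

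Members and lists were chosen with earlier results of these data known. All 36 genes are named; values by animal are given for up to 3 genes per role and direction with the largest change at 72 h and for those listed at more than 1 time point, and list genes are named where called, up to 3 per time point and direction. Some list genes are not reported here. The labels give no batch.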

Additional observations from a re-analysis of the deposited data

Results flagged for a closer look

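In 15 of 180 groups of 7 animals (36 genes at 5 time points) the highest or lowest CPM stood apart from the other animals by Dixon's test at 95%, where chance gives about 9. Animal 206 stood apart 7 times. It had the lowest *ADAM19* at 6 h (9.18 CPM, next 14.01), 24 h (6.59, next 14.2) and 48 h (4.79, next 8.71), the highest *ADAMTS16* at 6 h (18.2, next 4.98), the lowest *ITGB6* at 24 h (21.4, next 43.9), and the highest *COL20A1* (2.20, next 1.25) and *ITGA2B* (7.33, next 4.58) at 48 h. The *ADAMTS16* value raised the 6 h mean that the fall to 48 h was measured from, and without animal 206 that fall was still called.

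Animal 103 had the lowest *FBN1* (120 CPM, next 197) and *FN1* (127, next 261) at 0 h. Animal 201 had the lowest *FBN1* at 6 h (159, next 199), the lowest *COL5A1* (57.1, next 79.8) and *ADAMTS2* (11.2, next 16.8) at 48 h, and the highest *ADAMTSL1* at 0 h (4.15, next 2.23). Animal 202 had the lowest *COL5A3* (29.8, next 49.9) and *COL6A6* (1.07, next 2.48) at 72 h.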

How the results depend on the processing

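With DESeq2 size factors, DESeq2's Wald test or a minimum of 1 CPM, every count of calls stayed within 1.5 times its reported value. Of the values of single members under all alternatives, 776 stayed on their side of the threshold, 32 no longer passed and 1 newly passed, and none changed direction. Without a filter on low counts 0 members were higher at 6 h and 1 at 24 h. With 14 samples the counts were 0 and 1. Without the animal block the counts were 0 higher at 6 h, 0 higher and 0 lower at 24 h, 3 higher at 48 h, 0 higher at 48 h against 6 h, 0 lower at 24 h against 6 h and 1 lower at 48 h against 24 h, those by the FDR alone were 10 (48 h against 6 h) and 1 (48 h against 24 h), and the step difference passed in 0. The FDR alone gave 5 higher at 24 h, 21 lower at 48 h, 2 higher and 23 lower at 48 h against 6 h, 1 higher at 24 h against 6 h and 22 lower at 48 h against 24 h. Testing against the fold change itself (glmTreat) left 2 higher and 16 lower at 72 h, 0 higher and 1 lower at 48 h, and 0 at 6 h, 24 h and in the 21 libraries. Without the block no other count moved by over 1.5 times.

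Leaving out 1 animal in turn gave 0 to 1 higher at 6 h, 1 to 3 higher and 0 to 1 lower at 24 h, 4 to 6 higher and 8 to 13 lower at 48 h, and 5 to 7 higher and 24 to 27 lower at 72 h. In the 21 libraries it gave 6 to 10 lower at 48 h against 6 h, 0 to 1 lower at 24 h against 6 h and 3 to 6 lower at 48 h against 24 h, or 20 to 24 and 15 to 21 by the FDR alone at 48 h against 6 h and against 24 h, and 1 to 5 for the step difference. The cause was not tested. The counts by the FDR alone and the step difference were added after seeing the data. 5 members averaged under 1 CPM, where reads limit the precision.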
